A study of Mus musculus with 39 samples.

Results

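The genes described here are targets of the transcription factor NRF2 and genes that protect cells from ferroptosis: Osgin1, Aifm2, Hmox1, Nqo1, Gclm, Gclc, Txnrd1, Srxn1, Slc7a11 and Gpx4. They were chosen by gene symbol from this pathway when differences between the treatment groups in these counts were already known, so the group differences describe the genes and are not independent evidence about them. Of the 10 genes named, 9 were analysed, out of 39676 genes in the count table. Txnrd1 was not analysed here.

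NRF2 is a transcription factor that is held in the cytoplasm and marked for destruction by KEAP1 until oxidants or electrophiles release it. It then binds antioxidant response elements with small MAF proteins, where BACH1 competes with it, and raises genes for glutathione synthesis, thioredoxin-linked repair, quinone reduction and haem breakdown. Ferroptosis is a form of cell death driven by iron and by peroxidation of membrane lipids. Its main brakes are the cystine and glutathione axis that ends in GPX4, and a separate route in which AIFM2, also called FSP1, keeps coenzyme Q reduced.

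Bulk RNA was sequenced from 39 subcutaneous AB1-HA tumours, which grow from a transplanted mouse mesothelioma line of BALB/c origin that carries influenza haemagglutinin. The study asked how tretinoin (all-trans retinoic acid) changes tumours and the response to immune checkpoint therapy (ICT). The 10 PBS mice were controls, the 9 tretinoin mice received tretinoin at 5 mg/kg, the 10 ICT mice received antibodies to CTLA-4 and PD-L1 at 100 µg each, and the 10 tretinoin+ICT mice received both. Tumours were resected on day 9; mice had a tumour on each flank, and the labels divide the tretinoin+ICT tumours by the fate of the one left in place into 6 responders and 4 non-responders. Every tumour came from the same transplanted line, so the replicates are mice and not independent tumours of origin. The first digit of the labels forms 8 name series, 2 for each treatment and none shared between treatments, so name series and treatment cannot be told apart.

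The tumours held 14033046 to 37951183 counts each (median 18548168), and no library repeated another. Of the mesothelial markers, Pdpn had 1058 to 1751 normalised counts, Wt1 had 4.67 to 100.5, and Calb2, Krt19, Lrrn4 and Upk3b stayed between 0 and 17.7, so 4 of the 6 measured were at or near 0. A normalised count is the read count divided by a size factor fitted over all 39 tumours. In bulk tumours, more RNA per cell and more cells of a type that expresses a gene cannot be told apart, which holds for every value below.

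Per kilobase of exon, the genes spanned a wide range. In PBS tumours the mean level per kilobase of exon was 2791 normalised counts for Gpx4 and 587 for Hmox1. It was between 108 and 256 for Srxn1, Gclc, Gclm, Slc7a11, Nqo1 and Aifm2, and 34.3 for Osgin1. In GENCODE M21 (GRCm38), matched on gene identifiers, Osgin1 lies on the plus strand at chr8:119434124-119446256 and Aifm2 on the plus strand at chr10:61715263-61739260. Hmox1 (chr8:75093621-75100589) and Nqo1 (minus strand, chr8:107388225-107403206) are on the same chromosome as Osgin1. Gclm lies at chr3:122245557-122270732, Gclc at chr9:77754535-77794485, Srxn1 at chr2:152105516-152111376, Slc7a11 on the minus strand at chr3:49892526-50443614 and Gpx4 at chr10:80047166-80056439. All 9 are protein coding.

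Aifm2, Gclm, Slc7a11 and Gpx4 share sequence with other genes, and the strand of the reads and the handling of reads with several matches are not given in the sources used here. Aifm2 shares 233 of its 4121 exon bases with H2afy2 on the opposite strand, which had 10.5 to 27.8 normalised counts in PBS tumours and 24.3 to 46.1 in tretinoin tumours. Gclm shares 296 of 6291 exon bases with Gm17494 on the opposite strand, 244 with the pseudogene Gm6061 on its own strand, and 287 bases that match the abundant cyclophilin gene Ppia at 97.9% identity. Slc7a11 transcripts hold 373 bases that match the tubulin gene Tuba1b at 96.2% identity. Gpx4 has a pseudogene copy, Gpx4-ps2, that matches over 762 bases at 99.7% identity. The counts of these 4 genes are therefore uncertain to the extent that such reads were assigned to them.

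RefSeq (GRCm38.p6) promoter windows, from 250 bases before to 50 after a start site, were at hand for 7 of the 9 genes. These 7 genes had 10 windows. The core of the antioxidant response element, TGACNNNGC on either strand, occurred in 2 of the 10, from 2 genes, and in 12.4% of all 32851 windows. The nuclear receptor half-site AGGTCA, which retinoid receptors also bind, occurred on either strand in 3 of the 10 windows, from 3 genes, and in 16.3% of all windows. The stretches below show the antioxidant core of Gclm and the half-sites of Aifm2 and Srxn1, 3 of the genes called between tretinoin and PBS, with the matched letters in capitals.
Gclm antioxidant core, opposite strand, 134 bases before the start site, chr3:122245398-122245456, between genes: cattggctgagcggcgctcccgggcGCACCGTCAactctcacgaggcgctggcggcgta
Aifm2 half-site, 212 bases before the start site, chr10:61720412-61720467, in an Aifm2 intron of GENCODE M21: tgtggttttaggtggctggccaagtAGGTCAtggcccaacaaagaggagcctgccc
Aifm2 half-site, 34 bases before the start site, chr10:61720590-61720645, also in an Aifm2 intron: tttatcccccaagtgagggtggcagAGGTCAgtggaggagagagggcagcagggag
Srxn1 half-site, 215 bases before the start site, chr2:152105284-152105339, between genes: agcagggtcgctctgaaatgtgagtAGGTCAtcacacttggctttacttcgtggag
Gpx4 was the third gene with a half-site and Srxn1 the other gene with an antioxidant core, where it overlapped a half-site after the start. A match of letters does not show binding. The windows of Osgin1, Nqo1 and Slc7a11 lacked both strings, but sequence outside these short windows was not searched, so sites elsewhere would be missed.

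Across the comparisons, the genes did not move as a block. Tretinoin tumours had higher Osgin1, Aifm2 and Srxn1 and lower Gclm and Slc7a11 than PBS tumours, while ICT tumours had higher Hmox1 and Aifm2 and lower Nqo1. Gpx4 passed the test in no comparison. A gene was called where edgeR's quasi-likelihood test gave an adjusted p below 0.05 over all genes tested. Between tretinoin and PBS, 3 of 9 genes were called higher and 2 lower, beside 11.5% and 8.95% of all genes. Between ICT and PBS, 2 were higher and 1 lower, beside 14.1% and 7.15%. Between tretinoin+ICT and PBS, 3 were higher and 3 lower, beside 25.7% and 24.5%. Between tretinoin+ICT and ICT, 2 were higher and 0 lower, beside 1.57% and 0.422%, and DESeq2 called 0 of the 9 lower as well. Slc7a11 and Gclc were lower there at an unadjusted edgeR p below 0.05, a level that 18.1% of all genes reached in either direction. Between tretinoin+ICT and tretinoin, 2 were higher and 1 lower, beside 12.3% and 9.01%. The comparisons share tumours, so their counts are not independent, and the median log2 fold change of the 9 genes lay between -0.03 and 0.00 in these 5 comparisons.

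**Figure D1:**
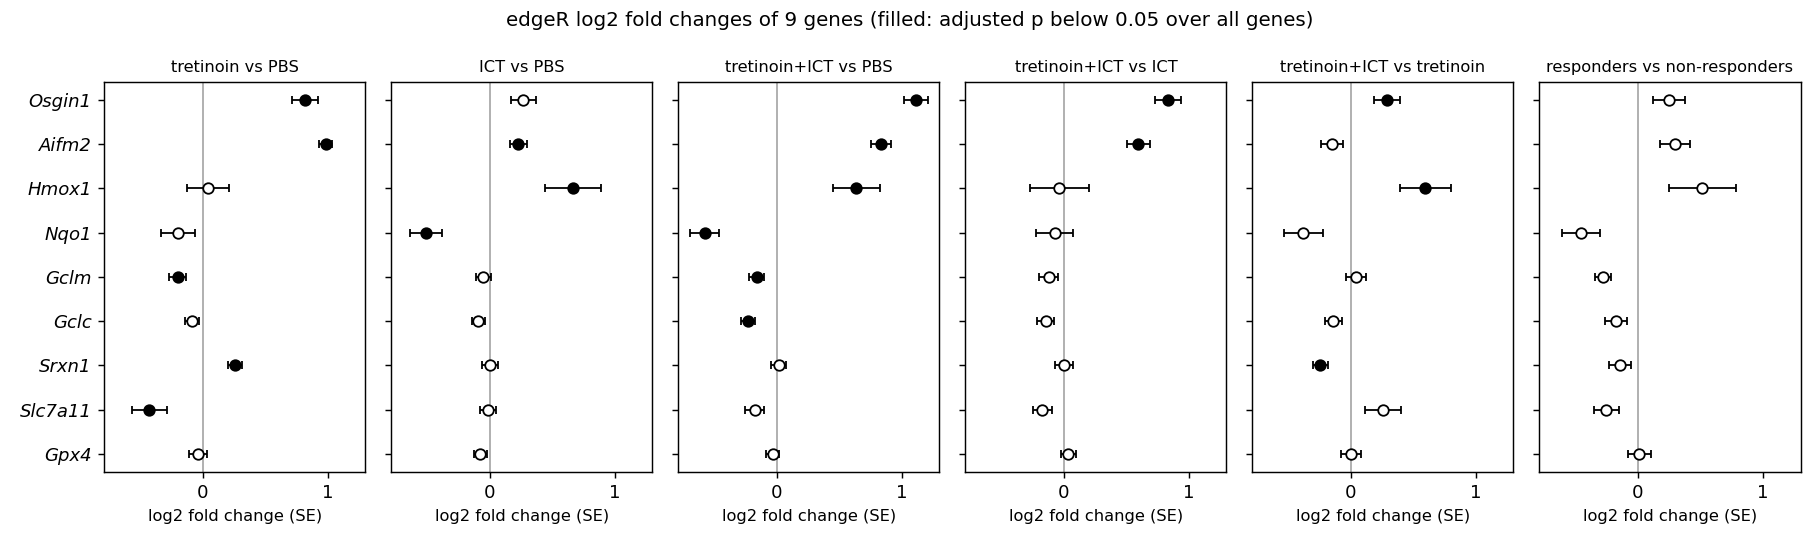
Log2 fold change of each gene (x axis, with the standard error) in 5 treatment comparisons and in responders against non-responders, with genes on the y axis; filled points have an adjusted p below 0.05 over all genes. Osgin1 and Aifm2 lie to the right wherever tretinoin is compared with its absence, Hmox1 and Nqo1 move apart with ICT, and Gpx4 stays near 0.

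Osgin1, an oxidative stress induced growth inhibitor, had the largest fold difference of the 9 genes between tretinoin+ICT and PBS. In PBS tumours it had 75.0 to 113 normalised counts with a median of 89.7, and in tretinoin tumours 127 to 208 with a median of 159. ICT tumours had 83.4 to 132 (median 112) and tretinoin+ICT tumours 166 to 278.0 (median 190.0). Every tumour given tretinoin, alone or with ICT, therefore lay above every PBS tumour, and the tretinoin+ICT tumours also lay above every ICT tumour. How many of all genes tested separated these groups in this way was not counted. The separation therefore cannot be read as particular to Osgin1 or, below, to Aifm2. The mean was 91.8 ± 12.8 (SD, n = 10) in PBS and 162 ± 26.9 (n = 9) in tretinoin tumours, or 0.82 ± 0.10 (SE) in log2 fold change (edgeR adjusted p = 9.02e-06). In tretinoin+ICT tumours the mean was 198 ± 31.4 (n = 10), which was 1.11 ± 0.10 above PBS (adjusted p = 4.26e-08) and 0.83 ± 0.10 above ICT alone (6.52e-05), both as log2 fold changes from edgeR. Between the 2 tretinoin and 2 PBS name series, all 4 ratios of means were higher with tretinoin, at 0.51 to 1.10 on the log2 scale. Their direction follows from the lack of overlap between the groups.

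The difference in Osgin1 between ICT and PBS was not called by edgeR. The mean in ICT tumours was 111 ± 17.6 normalised counts (n = 10), its log2 fold change over PBS was 0.27 ± 0.10 (edgeR adjusted p = 0.0610), and DESeq2 gave an adjusted p of 0.0457. Tretinoin+ICT tumours were 0.29 ± 0.10 above tretinoin tumours on the log2 scale (edgeR adjusted p = 0.0490), with overlapping groups. That call was lost in 15 of 19 fits that each left out 1 tumour, and without tretinoin+ICT replicate 7, the tumour with 278.0 normalised counts, the log2 fold change was 0.23 (adjusted p = 0.0928).

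Aifm2, the coenzyme Q reductase FSP1, was nearly doubled in tretinoin tumours. PBS tumours had 391 to 474 normalised counts (median 448) and tretinoin tumours 801 to 1027 (median 840), so the groups lay far apart. ICT tumours had 447 to 695 (median 501) and tretinoin+ICT tumours 629 to 1069 (median 758). The means were 445 ± 23.0 (n = 10), 881 ± 82.7 (n = 9), 524 ± 72.4 (n = 10) and 793 ± 139 (n = 10) in that order. The log2 fold change between tretinoin and PBS was 0.98 ± 0.05 (edgeR adjusted p = 3.26e-11), and the 4 ratios between name series were 0.90 to 1.055.

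Aifm2 was also called higher with ICT. ICT tumours were 0.23 ± 0.07 above PBS tumours on the log2 scale (edgeR adjusted p = 0.0189) and overlapped them. The tretinoin+ICT tumours were 0.83 ± 0.08 above PBS (1.60e-07) and 0.60 ± 0.09 above ICT tumours (edgeR adjusted p = 7.46e-04). Against tretinoin alone the difference was -0.15 ± 0.09 (edgeR adjusted p = 0.212). H2afy2, which overlaps Aifm2 on the opposite strand, was also higher with tretinoin, by 0.69 on the log2 scale (edgeR adjusted p = 0.00913), with a highest level of 46.6 normalised counts in any tumour.

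**Figure D2:**
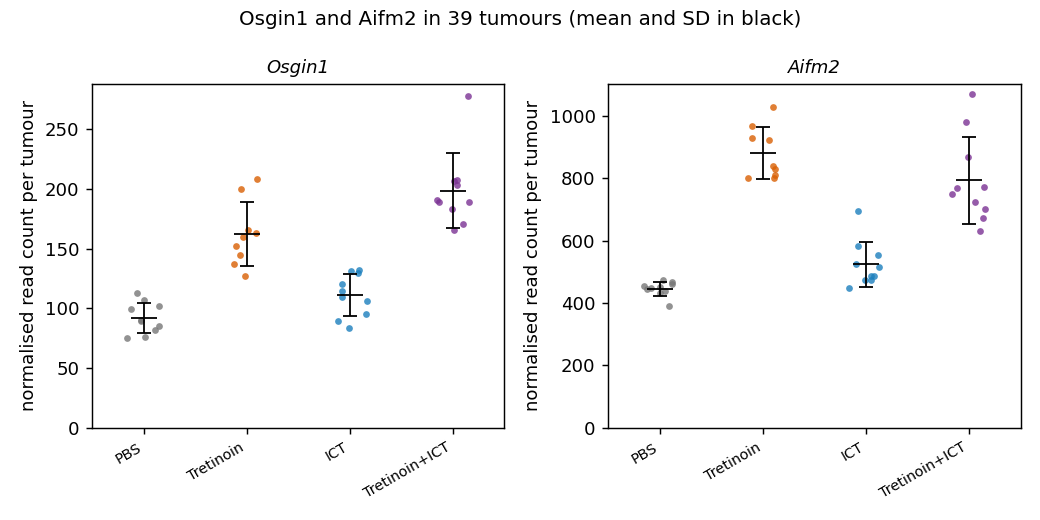
Normalised read counts of Osgin1 and Aifm2 (y axes) in each of 39 tumours by treatment group (x axes); points are tumours and black marks the mean with the SD. The tretinoin and tretinoin+ICT tumours sit above all PBS tumours for both genes. The means are 162 and 198 against 91.8 for Osgin1, and 881 and 793 against 445 for Aifm2. How many of all genes are separated in this way was not counted.

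Hmox1, the inducible haem oxygenase, was called higher in each comparison that adds ICT, and not between tretinoin and PBS. PBS tumours had 801 to 1796 normalised counts (median 936) and tretinoin tumours 670 to 1708 (median 1147). ICT tumours had 981 to 3975 (median 1332) and tretinoin+ICT tumours 951 to 2868 (median 1565). All groups overlapped, and 1 PBS tumour (replicate 5) and 1 ICT tumour (replicate 3) stood well above the rest of their groups. The log2 fold change was 0.67 ± 0.22 for ICT over PBS (edgeR adjusted p = 0.0385), 0.64 ± 0.19 for tretinoin+ICT over PBS (0.00892) and 0.60 ± 0.20 for tretinoin+ICT over tretinoin (0.0446). For tretinoin over PBS it was 0.04 ± 0.17 (edgeR adjusted p = 0.889).

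The Hmox1 call between tretinoin+ICT and PBS held in all 26 settings without a fold minimum, with log2 fold changes from 0.50 to 0.76. It was lost with a minimum log2 fold change of 1. The other Hmox1 calls did not hold throughout the settings without a fold minimum. Between ICT and PBS, leaving out ICT replicate 3 gave 0.42 in log2 fold change (edgeR adjusted p = 0.0602), the call was lost in 11 of 20 fits that left out 1 tumour, and leaving out both of the highest tumours together gave 0.55 (0.00553). The call between tretinoin+ICT and tretinoin was lost in 12 of 19 such fits. All 4 ratios between ICT and PBS name series were higher, at 0.54 to 0.80 on the log2 scale. Macrophages break down haem from red cells. Against PBS, 8 of 8 measured macrophage markers were called higher in ICT and 8 of 8 in tretinoin+ICT, beside 14.1% and 25.7% of all genes. Between tretinoin and PBS, where Hmox1 was not called, 4 of 8 were higher, beside 11.5%. Between tretinoin+ICT and tretinoin 4 of 8 were higher, beside 12.3%, and between tretinoin+ICT and ICT 0 of 8, beside 1.57%. Their summed level ranged from 43050 to 66390 normalised counts in PBS tumours, from 47240 to 98730 in tretinoin, from 47030 to 100900 in ICT and from 63350 to 93930 in tretinoin+ICT tumours. Of the neutrophil markers tested, 5 of 5 were higher with ICT, with sums of 850 to 2018 in PBS and 1253 to 4970 in ICT tumours. No marker in these lists was at 0 in every tumour, and their part in the Hmox1 difference was not tested.

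Nqo1, the quinone reductase often taken as the standard readout of NRF2, fell with ICT. PBS tumours had 143 to 212 normalised counts (median 175), tretinoin tumours 75.4 to 188 (median 166), ICT tumours 84.4 to 172 (median 128) and tretinoin+ICT tumours 87.6 to 158 (median 110). The highest ICT and tretinoin+ICT tumours thus lay below the median PBS tumour. The means were 174 ± 24.6 (n = 10) in PBS and 122 ± 29.6 (n = 10) in ICT tumours, or -0.51 ± 0.12 in log2 fold change (edgeR adjusted p = 0.00860). Tretinoin+ICT tumours had a mean of 116 ± 26.2 (n = 10), or -0.58 ± 0.12 against PBS (edgeR adjusted p = 3.89e-04). Tretinoin alone gave 151 ± 37.4 (n = 9) and -0.20 ± 0.13 (edgeR adjusted p = 0.310), where tretinoin replicate 3 had the lowest value of all tumours. Tretinoin+ICT against tretinoin gave -0.38 ± 0.16 (edgeR adjusted p = 0.0865), which was called in 3 of 25 settings without a fold minimum. These were all tumours in 1 fit (edgeR adjusted p = 0.0470), without tretinoin replicate 3 (0.0124) and without tretinoin+ICT replicate 9 (0.0499). Hmox1 and Nqo1, both textbook NRF2 targets, were thus called in opposite directions in the same ICT tumours. Of 5 fibroblast markers tested, 2 were lower in ICT than in PBS, beside 7.15% of all genes. Between tretinoin+ICT and PBS, 1 was higher and 1 lower, beside 25.7% and 24.5%. The sums were 115200 to 189100 in PBS, 104800 to 188700 in tretinoin, 87080 to 169900 in ICT and 102300 to 157700 in tretinoin+ICT tumours. The part of these markers in the Nqo1 difference was not tested.

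Gclm and Gclc encode the modifier and the catalytic subunit of glutamate cysteine ligase, which makes the first bond of glutathione. Gclm ranged from 878 to 1081 normalised counts in PBS (median 968), from 624 to 950 in tretinoin (median 871), from 685 to 1055 in ICT (median 943) and from 731 to 1021 in tretinoin+ICT tumours (median 854). The groups overlapped throughout. Its mean fell from 971 ± 63.9 (n = 10) in PBS to 844 ± 106 (n = 9) in tretinoin tumours, or -0.20 ± 0.06 in log2 fold change (edgeR adjusted p = 0.0325). It was -0.16 ± 0.06 (0.0293) between tretinoin+ICT and PBS by the same test. Both calls were lost when all 39 tumours entered 1 fit, with adjusted p of 0.0584 and 0.0558, and each was lost in 5 fits that left out 1 tumour. Tretinoin replicate 3 had the lowest Gclm and Gclc of its group, 624 and 561 normalised counts, as well as the lowest Nqo1.

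Ppia and Gm17494, which share sequence with Gclm, moved the same way as Gclm with tretinoin. Their log2 fold changes between tretinoin and PBS were -0.24 (edgeR adjusted p = 0.0136) and -0.28 (0.0259), and their part in the Gclm difference was not tested. Gclc had 669 to 835 normalised counts in PBS (median 749), 561 to 784 in tretinoin (median 715), 628 to 821 in ICT (median 689) and 538 to 747 in tretinoin+ICT tumours (median 642). It was called in 1 comparison, at -0.23 ± 0.06 between tretinoin+ICT and PBS (edgeR adjusted p = 0.00187), where all 4 ratios between name series were lower. Tretinoin alone gave -0.09 ± 0.05 (adjusted p = 0.264) and ICT alone -0.09 ± 0.05 (0.191) by edgeR.

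Slc7a11, the cystine importer subunit that feeds glutathione synthesis, was lower in tretinoin tumours. PBS tumours had 1325 to 1908 normalised counts (median 1732) and tretinoin tumours 685 to 1639 (median 1365). ICT tumours had 1442 to 1873 (median 1712) and tretinoin+ICT tumours 1134 to 1789 (median 1569). The mean was 1692 ± 168 (n = 10) in PBS and 1256 ± 341 (n = 9) in tretinoin tumours, or -0.43 ± 0.14 in log2 fold change (edgeR adjusted p = 0.0357). The spread in the tretinoin group came mostly from replicates 2 and 8, which had 706 and 685 normalised counts while the other 7 had 1222 or more.

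Without these 2 tumours, the log2 fold change was -0.26 ± 0.07 (edgeR adjusted p = 0.0164), and the call was lost in 10 of 19 fits that left out 1 tumour, with log2 fold changes from -0.49 to -0.35. The same 2 tumours had the lowest Gpx4 of their group, at 3671 and 3536 normalised counts. They also had the smallest share of counts on 60 ribosomal protein genes, 2.22% and 2.05%, against 2.70% to 3.42% in the other tretinoin and PBS tumours. This measure was chosen after the values were seen, and its part in the Slc7a11 difference was not tested. Tuba1b, which resembles part of Slc7a11, was -0.20 with tretinoin on the log2 scale (edgeR adjusted p = 0.0165). Slc7a11 was at -0.18 ± 0.08 between tretinoin+ICT and PBS (edgeR adjusted p = 0.0618), and between ICT and PBS at -0.01 ± 0.06 (0.908).

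Srxn1, sulfiredoxin, which restores oxidised peroxiredoxins, rose with tretinoin given alone and was not called between tretinoin+ICT and PBS. It had 628 to 791 normalised counts in PBS (median 728), 766 to 981 in tretinoin (median 858), 600 to 934 in ICT (median 711) and 575 to 794 in tretinoin+ICT tumours (median 756). The tretinoin tumours overlapped the PBS tumours only at the edge. The mean was 722 ± 62.6 (n = 10) in PBS and 863 ± 71.9 (n = 9) in tretinoin tumours, or 0.26 ± 0.06 in log2 fold change (edgeR adjusted p = 0.00320), with name series ratios of 0.19 to 0.33. Tretinoin+ICT tumours had a mean of 728 ± 71.7 (n = 10), which was 0.01 ± 0.06 from PBS (adjusted p = 0.861) and -0.24 ± 0.06 from tretinoin alone (0.0125) by edgeR.

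Gpx4, the selenoenzyme that reduces lipid hydroperoxides, had 4343 to 5558.5 normalised counts in PBS (median 4775), 3536 to 5467 in tretinoin (median 4886), 4092 to 5305 in ICT (median 4536) and 3987 to 5487 in tretinoin+ICT tumours (median 4743). The groups overlapped almost completely. Its log2 fold changes between treatment groups ranged from -0.07 to 0.03, with standard errors of 0.05 to 0.08 and edgeR adjusted p of 0.296 to 0.973. Differences within these errors were not detectable.

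**Figure D3:**
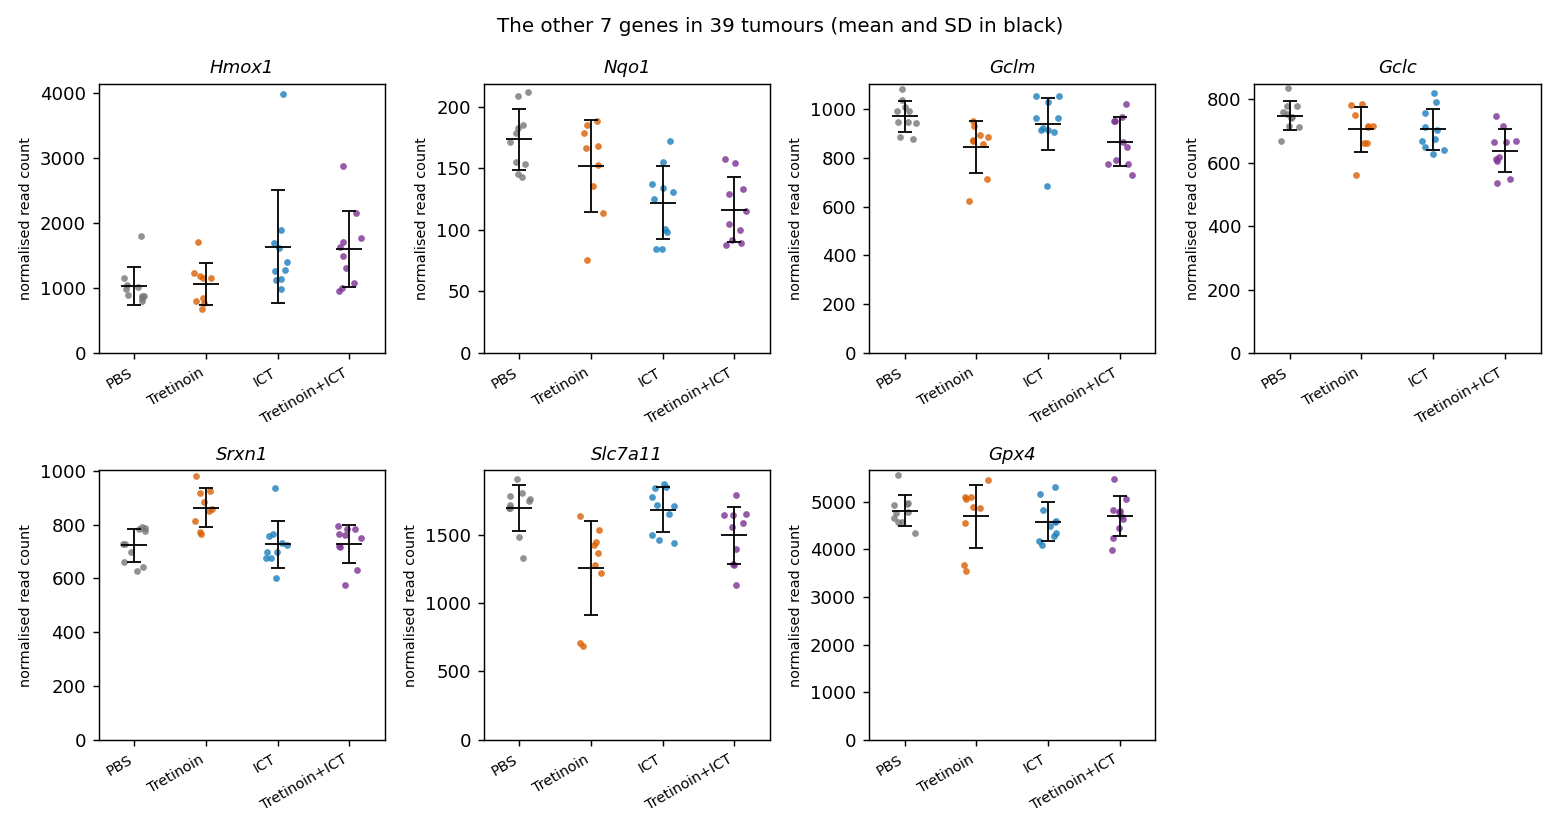
Normalised read counts (y axes) of the other 7 genes in each of 39 tumours by treatment group (x axes), with the mean and SD in black. Hmox1 is higher and Nqo1 lower in both groups given ICT, Srxn1 is higher in tretinoin tumours alone, and 2 tretinoin tumours lie low for Slc7a11 and Gpx4.

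Responders and non-responders within the tretinoin+ICT group were compared to ask whether these genes differed with outcome. By edgeR no gene was called, with 0 higher and 0 lower beside 0% of all genes in either direction, so the comparison had no calls anywhere in the table. At an unadjusted p below 0.05, 4 of the 9 genes differed (Gclm, Nqo1 and Slc7a11 lower and Aifm2 higher in responders), beside 22.6% of all genes. DESeq2 called Gclm and Nqo1 lower, and 1401 genes in all, with 864 higher and 537 lower.

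Gclm was the only one of the 9 genes whose outcome groups did not overlap. The non-responders had 949, 953, 966 and 1021 normalised counts, and the 6 responders had 731 to 865 with a median of 784. Every responder thus lay below every non-responder. How many of all genes tested separated the outcome groups in this way was not counted. With so few tumours, the lack of overlap therefore cannot be read as particular to Gclm. The log2 fold change was -0.28 ± 0.06 (edgeR adjusted p = 0.0841, DESeq2 0.00341). Gclm was lower in responders in both name series that held both outcomes, a direction that follows from the lack of overlap. Ppia was at -0.13 (edgeR adjusted p = 0.383) in this comparison. Nqo1 had 115, 129, 154 and 158 normalised counts in non-responders and 87.6 to 133 in responders (median 96.0), with -0.45 ± 0.15 as its log2 fold change (edgeR adjusted p = 0.117). Slc7a11 had 1555, 1640, 1650 and 1789 in non-responders and 1134 to 1645 in responders (median 1342), a difference of -0.25 ± 0.10 (edgeR adjusted p = 0.172).

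Osgin1 and Aifm2, the genes most raised by tretinoin, lay the other way. Aifm2 had 629, 672, 724 and 767 normalised counts in non-responders and 703 to 1069 in responders (median 819), with 0.30 ± 0.12 as its log2 fold change (edgeR adjusted p = 0.170). Osgin1 had 166, 170, 189 and 189 in non-responders and 183 to 278.0 in responders (median 205), with 0.25 ± 0.13 (edgeR adjusted p = 0.261). Hmox1 was 0.52 ± 0.27 (0.282), Gclc -0.17 ± 0.09 (0.261), Srxn1 -0.14 ± 0.09 (0.360) and Gpx4 0.01 ± 0.09 (0.949) by edgeR. Leaving out responder replicate 8, which had the highest Nqo1 of its group, gave 1805 called genes including Nqo1, Gclm and Slc7a11, with adjusted p of 0.0235, 0.0209 and 0.0402. Each of these genes was called in only 1 of 10 fits that left out 1 tumour. The Nqo1 and Slc7a11 of replicate 8, 133 and 1645 normalised counts, lay within the non-responder ranges. Its removal therefore widened the Nqo1 and Slc7a11 differences by itself. The Gclm of replicate 8, 792 normalised counts, lay below every non-responder, and the log2 fold change of Gclm went from -0.28 to -0.30 without it. Why the number of all genes called rose in this fit was not tested. The calls are not separate evidence of a difference by outcome.

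**Figure D4:**
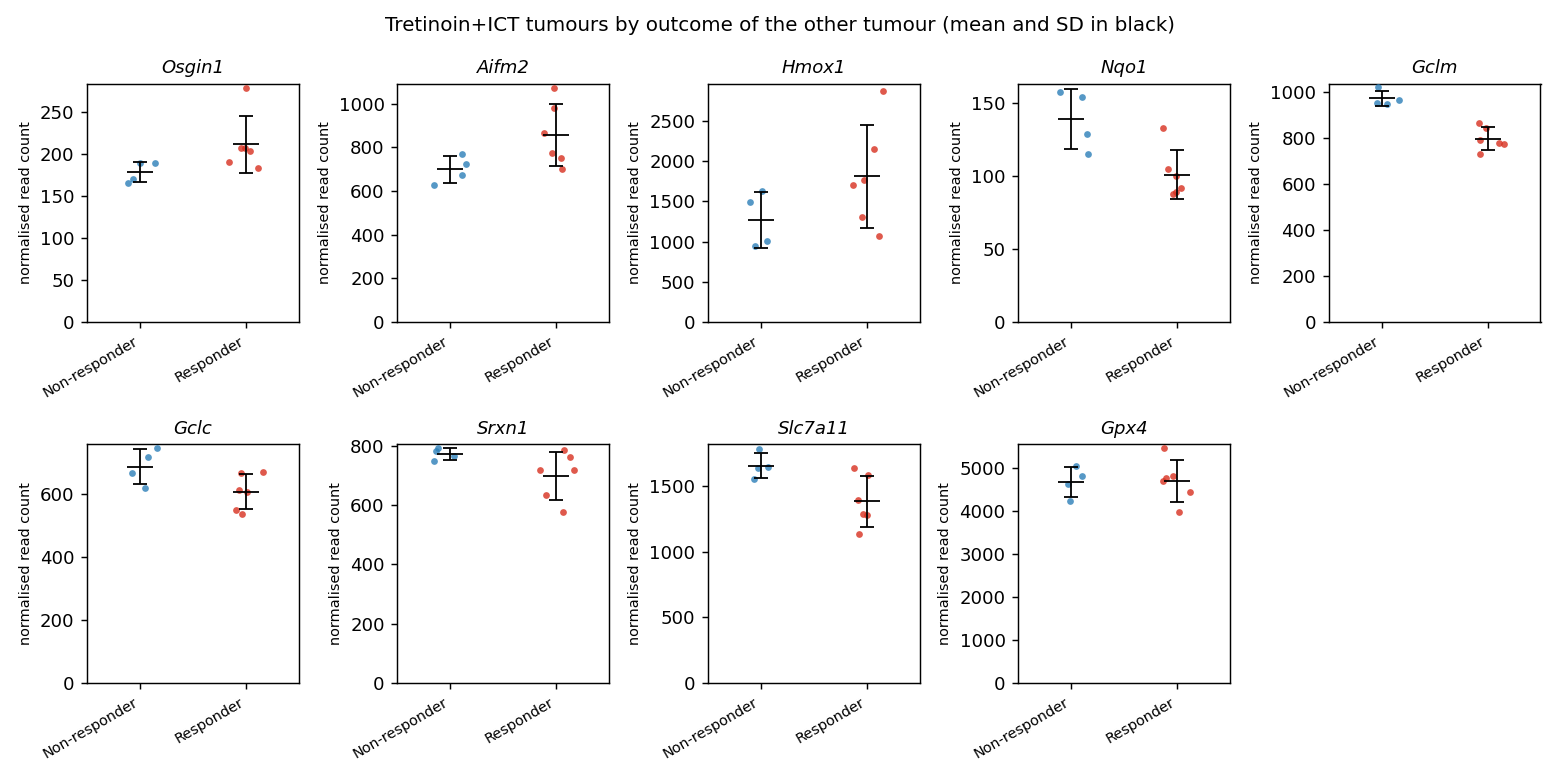
Normalised read counts (y axes) of 9 genes in the 10 tretinoin+ICT tumours, with 4 non-responders and 6 responders on the x axes and the mean and SD in black. Gclm shows no overlap, with responders at 731 to 865 and non-responders at 949 to 1021, while the other genes overlap.

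An interaction term over all 39 tumours asked whether the change with tretinoin differed with and without ICT. None of the 9 genes was called, beside 0.0401% of all genes called higher and 0.267% lower. The largest term was that of Aifm2, at -0.39 ± 0.11 on the log2 scale (edgeR adjusted p = 0.143), and Srxn1 had -0.26 ± 0.09 (0.311). These were also the only ones of the 9 with an unadjusted p below 0.05, a level that 9.45% of all genes reached, and DESeq2 called none of the 9. Osgin1 had 0.01 ± 0.14 (edgeR adjusted p = 0.987).

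The rest of the pathway was read from lists of regulators, other NRF2 targets and genes that restrain or drive ferroptosis. Their counts stand beside the shares of all genes called higher and lower, which were 11.5% and 8.95% with tretinoin, 14.1% and 7.15% with ICT, and 25.7% and 24.5% with both, each against PBS. Nfe2l2, which encodes NRF2, was higher with tretinoin (log2 fold change 0.25 ± 0.07, edgeR adjusted p = 0.0194), with ICT (0.24 ± 0.08, 0.0431) and with both (0.40 ± 0.07, 6.27e-05), each against PBS. Its inhibitor Keap1 was 0.31 ± 0.05 higher with ICT (edgeR adjusted p = 6.24e-04) and 0.16 ± 0.06 with tretinoin (0.0689). The repressor Bach1 was 0.24 ± 0.08 higher with ICT (edgeR adjusted p = 0.0389) and 0.09 ± 0.09 with tretinoin (0.492). Of 8 regulators tested, 2 were higher and 1 lower with tretinoin, 5 higher with ICT, and 6 higher and 1 lower with both. Cul3, the ubiquitin ligase scaffold that acts with KEAP1, was the regulator that fell with tretinoin (-0.18 ± 0.04, edgeR adjusted p = 0.00185).

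Of 30 other NRF2 targets tested, 2 were higher and 7 lower between tretinoin and PBS, with a median log2 fold change of -0.06 beside 0.01 over all genes. Gsr, glutathione reductase, rose by 0.51 ± 0.06 (edgeR adjusted p = 1.91e-06) and Pgd, of the pentose phosphate path, by 0.21 ± 0.05 (0.00628). Ugdh (-0.21 ± 0.05, 0.00478) and Lrp8 (-0.42 ± 0.10, 0.00484) were lower. Gsr behaved like Srxn1 in that tretinoin+ICT tumours lay below tretinoin tumours, at -0.44 ± 0.07 (edgeR adjusted p = 3.81e-04). Between tretinoin+ICT and PBS, 13 of 31 tested were higher and 7 lower, with a median log2 fold change of 0.03 beside -0.01 over all genes. With ICT alone, 6 of 30 were higher and 4 lower. Blvra, which turns the biliverdin made by haem oxygenase into bilirubin, had the smallest adjusted p (0.36 ± 0.08, edgeR adjusted p = 0.00367), and Ephx1, an epoxide hydrolase, was lower (-0.28 ± 0.06, 0.00658). Cd36, a lipid scavenger receptor also found on macrophages, was 0.56 ± 0.13 higher with ICT (0.00836).

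Of 19 ferroptosis suppressors tested, 0 were higher and 6 lower between tretinoin and PBS, among them Acsl3 (-0.27 ± 0.05, edgeR adjusted p = 0.00150), Pir (-0.35 ± 0.08, 0.00666), the iron exporter Slc40a1 (-0.26 ± 0.06, 0.00789) and Vkorc1l1 (-0.16 ± 0.04, 0.0107). With ICT 2 were higher and 3 lower, with Dhodh at -0.22 ± 0.05 (edgeR adjusted p = 0.00429). With both, 3 were higher and 9 lower. Of 19 ferroptosis promoters tested, 3 were higher and 3 lower with tretinoin, 5 higher with ICT, and 10 higher and 4 lower with both. Acsl4, which loads oxidisable fatty acids into membrane lipids, had a mean of 1895 ± 184 normalised counts in PBS (n = 10) and 3596 ± 642 in tretinoin tumours (n = 9), or 0.93 ± 0.09 in log2 fold change (edgeR adjusted p = 3.08e-07). The transferrin receptor gene Tfrc was lower with tretinoin, by -0.68 ± 0.15 (0.00350), and again between tretinoin+ICT and ICT, by -0.70 ± 0.14 (0.00757). Cybb, an oxidase subunit of phagocytes, was 1.19 ± 0.33 higher with ICT (edgeR adjusted p = 0.0174).

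Markers of other cells gave the setting of these values. Between tretinoin and PBS, 4 of 8 macrophage, 2 of 5 endothelial and 1 of 2 mesothelial markers tested were higher. No T cell, B cell, neutrophil, fibroblast, red cell, skeletal muscle, skin or fat marker was called in that comparison. Between ICT and PBS, 1 of 5 endothelial markers was lower and 2 of 2 mesothelial markers were higher, and no T cell, B cell, red cell, muscle, skin or fat marker was called. Skeletal muscle markers summed to between 5677 and 65460 normalised counts over the 39 tumours.

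Within treatment groups the genes formed a few linked pairs. Residuals of log2 CPM, a depth-scaled count, from the group means were correlated over 39 tumours for 36 pairs, and 9 passed a permutation test with adjustment over the 36 pairs (7 positive and 2 negative), while 12 passed by rank. Gclm and Srxn1 had the highest correlation, with Pearson's r = 0.70 and Spearman's rho = 0.64 (permutation adjusted p = 3.6e-04 and 0.0018; the raw p of 1e-05 for r is the smallest that the permutations can give). Gclm also went with Nqo1 (r = 0.64, rho = 0.57, permutation adjusted p = 0.00216 and 0.00852) and with its partner Gclc (r = 0.58, rho = 0.52, permutation adjusted p = 0.00266 and 0.0110). Osgin1 and Aifm2 were correlated at r = 0.55 and rho = 0.53 (permutation adjusted p = 0.00252 and 0.00852), and Aifm2 and Hmox1 at r = 0.65 and rho = 0.53 (0.00126 and 0.0110).

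Aifm2 ran against Gclc (r = -0.50, rho = -0.44, permutation adjusted p = 0.0219 and 0.0402) and Nqo1 (r = -0.45, rho = -0.43, 0.0332 and 0.0402). Srxn1 and Slc7a11 had r = 0.46 and rho = 0.49 (permutation adjusted p = 0.00582 and 0.0110). Without the 2 tumours farthest from the median of the first gene, r was 0.42 to 0.65 in size for these 8 pairs. For the ninth, Slc7a11 and Gpx4 (r = 0.57, rho = 0.44, permutation adjusted p = 0.0401 and 0.0402), r fell to 0.23, so that relation rests on 2 tumours. With residuals from name series means in place of group means, the same 9 pairs passed and Gclm with Gpx4 was added. Macrophage and other cell contents differ between tumours of a group, and their part in these correlations was not tested.

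**Figure D5:**
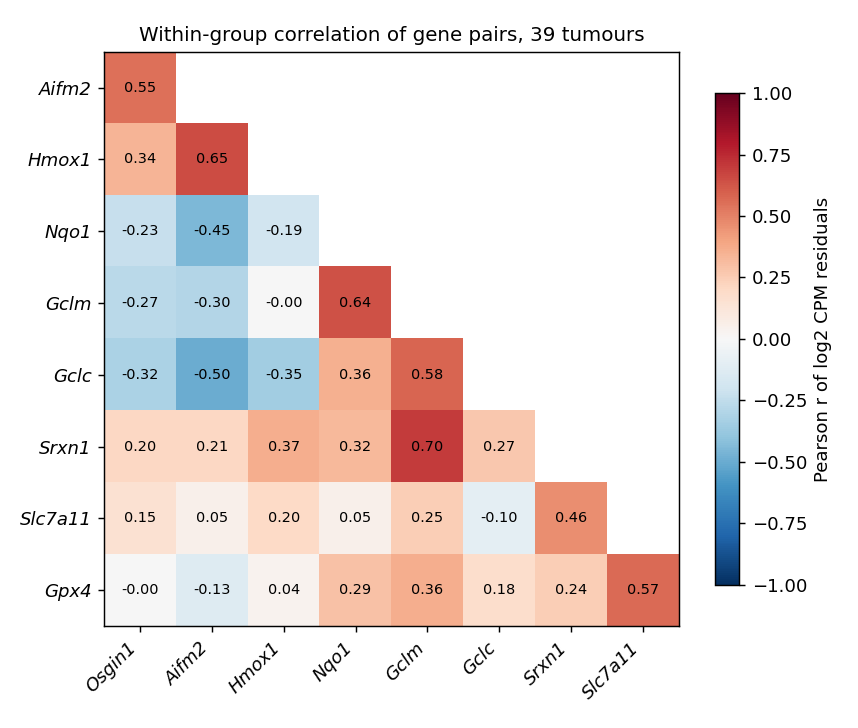
Pearson's r (colour and number) of log2 CPM residuals from treatment group means for 36 gene pairs over 39 tumours; genes are on both axes. Gclm is linked with Srxn1, Nqo1 and Gclc at r of 0.58 to 0.70, and Aifm2 with Hmox1 at 0.65, while Aifm2 and Gclc are at -0.50.

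Over all 39 tumours, group differences included, the gene whose log2 CPM was most like that of each member was found among 12115 genes. For Aifm2 it was Cyp26b1, the retinoic acid hydroxylase (Pearson's r = 0.96), for Osgin1 it was Ehd1 (0.91), for Slc7a11 Atp5g2 (0.91) and for Nqo1 Sparc (0.89). For Hmox1 it was Hal (0.88), for Gpx4 the processed pseudogene Gm10163 (0.84), for Gclc Mapk6 (0.83), for Gclm Ugdh (0.82) and for Srxn1 Gsr (0.78). These values are descriptions, since tumours in a group share their treatment, and they were picked as the highest of many.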

How the data were processed

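RNA sequencing reads were aligned by the authors with HISAT2 (version 2.0.4) to a mouse genome they name mm11 and summed per gene with SummariseOverlaps; strand and multiple matches are not given in the sources used here. The values are raw read counts per gene as deposited by the authors, for 39 tumours. Counts were tested with edgeR (version 4.0.16, R 4.3.3; TMM scaling, filterByExpr, robust quasi-likelihood F test) on the groups compared, with Benjamini-Hochberg adjustment over all genes tested and a threshold of 0.05; DESeq2 was version 1.42.0. On simulated counts with 200 changed genes per comparison, the tests were checked beforehand. Normalised counts used DESeq2 size factors, and log2 CPM a prior count of 2. Pair correlations used 100000 permutations within groups. Of 39676 identifiers, 92.5% matched GENCODE M21. Near copies were found with blastn at 95% identity or more over at least 100 bases.

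The 10 genes and the pathway and marker lists were chosen with earlier results of these data known. The text names every member; from each pathway list, up to 4 called genes of smallest adjusted p per comparison, plus Nfe2l2, Keap1 and Bach1; and for each member the gene most correlated with it. Not all genes that this rule allows are printed. Nothing in the labels says that equal replicate numbers pair the mice, and replicates are separate mice, numbered here in order within a group. Alternatives were another tool, scaling, filter, fold minimum, samples in the fit and left-out tumours.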

Additional observations from a re-analysis of the deposited data

Results flagged for a closer look

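In 54 groups of 4 to 10 tumours (9 genes, 4 treatment groups and both outcomes), 9 had a highest or lowest tumour set apart from the rest. The gap was a large part of the range of the group, with a cut-off set for about 1 in 20 in separate groups. The outcome groups are part of the tretinoin+ICT group and the genes share tumours, so 9 of 54 cannot be read against that rate. Osgin1 was high in tretinoin+ICT replicate 7, a responder, at 278.0 normalised counts against 207 in the next tumour, both within the treatment group and among responders. Aifm2 was low in PBS replicate 9, at 391.26 against 432. Hmox1 was high in PBS replicate 5 (1795.5 against 1153) and in ICT replicate 3 (3975.3 against 1893). ICT replicate 3 was also high for Srxn1, at 934.05 against 763. Among responders, Nqo1 was high in tretinoin+ICT replicate 8, at 133.21 against 105. Gclm was low in ICT replicate 7, at 685.26 against 905, and Gpx4 was high in PBS replicate 2, at 5558.5 against 4984.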

How the results depend on the processing

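The calls of Osgin1 and Aifm2 between tretinoin and PBS, tretinoin+ICT and PBS, and tretinoin+ICT and ICT held in every fit that left out 1 tumour. Leaving out 1 tumour, the number of the 9 genes called ranged from 3 to 5 between tretinoin and PBS, 2 to 4 between ICT and PBS, 5 to 7 between tretinoin+ICT and PBS, 1 to 5 between tretinoin+ICT and tretinoin, and 0 to 3 between responders and non-responders, while the number of all genes called ranged from 2233 to 3381, 2103 to 3863, 6644 to 7444, 2111 to 4474 and 0 to 1805 in that order. Between tretinoin+ICT and ICT it was 2 in every such fit and all genes called ranged from 203 (without tretinoin+ICT replicate 7) to 883 (without ICT replicate 3). Without tretinoin replicate 3, Nqo1 and Gclc were also called between tretinoin+ICT and tretinoin (edgeR adjusted p = 0.0124 and 0.0330). Leaving out 1 tumour turned the sign of uncalled log2 fold changes. Between tretinoin and PBS, Hmox1 ranged from -0.07247 to 0.1666 and Gpx4 from -0.06493 to 0.00833. Between ICT and PBS, Srxn1 ranged from -0.03938 to 0.03054 and Slc7a11 from -0.04786 to 0.01316. Srxn1 ranged from -0.008714 to 0.04873 between tretinoin+ICT and PBS and from -0.02446 to 0.04741 against ICT, where Hmox1 ranged from -0.1616 to 0.2114. Between tretinoin+ICT and tretinoin, Gclm ranged from -0.008214 to 0.06664 and Gpx4 from -0.04392 to 0.03074, and between responders and non-responders Gpx4 ranged from -0.06129 to 0.05977. With a minimum log2 fold change of 1, all genes called were 232 (tretinoin against PBS), 332 (ICT against PBS), 845 (tretinoin+ICT against PBS), 56 (against ICT), 300 (against tretinoin) and 9 (interaction), and of the 9 genes 1 (Osgin1, tretinoin+ICT against PBS) was called and 0 in the other treatment comparisons. DESeq2 called 587 genes between tretinoin+ICT and ICT, 1401 between responders and non-responders with 2 of the 9, and 84 in the interaction. With all tumours in 1 fit these were 741 genes between tretinoin+ICT and ICT and 1 between responders and non-responders. With no low-count filter, 5 genes were called by response, 29 in the interaction, and 1 of the 9 (Srxn1) between tretinoin+ICT and tretinoin; Slc7a11 between tretinoin and PBS and Hmox1 between ICT and PBS lost their calls (edgeR adjusted p = 0.0692 and 0.0827). Uncalled values near 0 also changed sign: Srxn1 against ICT with DESeq2 (-0.001129), Gpx4 against tretinoin with no filter (-0.0005628) and in 1 fit (-0.001489), and Gpx4 by response with no filter (-0.01397) and with name series as a block (-0.07691). Leaving out both low Slc7a11 tumours gave Gpx4 0.05543 between tretinoin and PBS, and ended the Gclm call (edgeR adjusted p = 0.0725). Leaving out both of the highest Hmox1 tumours gave 1917 genes between ICT and PBS, and Srxn1 at -0.02724. The cause of these changes was not tested. Leaving out tumours in the treatment comparisons was chosen after seeing the data. No paired analysis was possible because the replicate numbers only name tumours within a group.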
